A study of Mus musculus with 4 samples.

Results

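Translation initiation and elongation factors were compared between Lgr5+ and Lgr6+ cochlear progenitors in the RNA-Seq of the neonatal mouse. The genes were taken by symbol alone, as every row of the deposited table that begins with Eif and a digit or with Eef1 or Eef2, which gave 63 of 23997 rows. Lgr5+ progenitors were EGFP+ cells sorted by flow cytometry from cochleae of Lgr5-EGFP-IRES-CreERT2 mice, and Lgr6+ progenitors were EGFP+ cells from Lgr6-EGFP-IRES-CreERT2 mice. All mice were at postnatal day 3 and the labels give the strain C57BL/6 for each sample, so the populations share age, tissue and strain but come from different reporter lines. EGFP marks the cells in which each *Lgr* promoter is active, and each sort can hold more than 1 cell type. The labels list 4 samples, 2 for each population, while the methods describe 3 fractions of the RNA of each population as its replicates.

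Each gene had 1 FPKM value (fragments scaled to the length of the transcript and to the mapped fragments of the library) per population, in which the authors had already combined the samples. The spread between samples is therefore unknown, no test was possible, and every difference here is a description of a single pair of values. The difference of a gene is its Lgr6+ value minus its Lgr5+ value of log2(FPKM + 1), and a negative number means a lower level in Lgr6+ progenitors. The added 1 understates the difference of genes with a low FPKM. Rows that reached an FPKM of 1 in either population were kept, and genes that differed at least 1.5-fold on this scale are called higher in 1 population. In bulk RNA, fewer cells of a type and less RNA per cell cannot be told apart.

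Protein synthesis begins when initiation factors load the initiator tRNA onto the small ribosomal subunit, bring that subunit to the capped mRNA and let it scan to a start codon. Elongation factors then deliver each aminoacyl-tRNA to the ribosome and move the ribosome along the mRNA. Cells tune this machinery mainly through phosphorylation of eIF2 and through proteins that block the cap-binding factor eIF4E, and several of its mRNAs carry a stretch of pyrimidines at the 5′ end (5′TOP mRNAs), through which mTOR signalling controls their translation.

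The populations differed in markers of cell identity and of other cell types. *Lgr5* itself was at 9.65 FPKM in Lgr5+ and 25.0 FPKM in Lgr6+ progenitors, so its level was higher in the Lgr6+ sort, while *Lgr6* was at 2.06 and 2.90 FPKM. The paper describes Lgr6+ cells as a subpopulation of the Lgr5+ progenitors, so *Lgr5* is expected in both sorts. Why its level was higher in the Lgr6+ sort was not tested. *Sox2*, a transcription factor of the sensory progenitors, was at 139.6 and 54.8 FPKM. The 7 supporting cell (SC) markers summed to 1195 FPKM in Lgr5+ and 522 FPKM in Lgr6+ progenitors, and the 6 hair cell (HC) markers to 231 and 503 FPKM. All 8 macrophage markers were higher in Lgr6+ progenitors, with sums of 3.66 and 263 FPKM, and *C1qb*, *C1qc*, *Tyrobp*, *Csf1r* and *Aif1* were listed at 0 in Lgr5+ progenitors. Markers of fibrocytes and mesenchyme summed to 47.1 and 412 FPKM (4 of 6 higher in Lgr6+ progenitors), those of endothelium to 12.5 and 79.4 FPKM (5 of 6) and those of erythroid cells to 629 and 108 FPKM (4 of 5 higher in Lgr5+ progenitors). The part of these cells in the levels of the translation factors was not tested.

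The translation factors were mostly lower in Lgr6+ than in Lgr5+ progenitors in the values as deposited, and the eEF1 group had the lowest median of the 10 role groups. Of the 63 rows, 61 were kept. The other two were *Eef1a2*, listed at 0 in Lgr5+ and at 0.0627 FPKM in Lgr6+ progenitors, and *Eif4e1b*, at 0.0833 and 0.0402 FPKM. Among the 61 kept genes, 19 were higher in Lgr5+ progenitors (31.1%), against 23.3% of all 13436 kept rows. A further 3 were higher in Lgr6+ progenitors (4.92%), against 28.5% of all kept rows. The remaining 39 differed by less than 1.5-fold. The difference was negative for 42 of the 61 genes, against 48.3% of all kept rows, and its median was -0.24 against 0.03 over all kept rows. The last genes inside the limit were *Eif2ak3* at -0.59 and *Eif2ak2* at 0.95, and the first outside it were *Eif5a2* at -0.56 and *Eif2s3y* at 0.55.

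These genes were highly expressed, and highly expressed rows as a whole were lower in Lgr6+ progenitors. Among the 1021 rows with a mean FPKM of at least 100, 29.1% were higher in Lgr5+ and 7.84% in Lgr6+ progenitors, with a median difference of -0.26. The 20 translation factors of that class held 9 that were higher in Lgr5+ progenitors and 0 that were higher in Lgr6+ progenitors, with a median of -0.42. With a mean FPKM of at least 20, 16 of 50 translation factors were higher in Lgr5+ progenitors against 24.4% of 4201 rows, and 1 was higher in Lgr6+ progenitors against 16%. The medians in that class were -0.22 and -0.13.

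The direction of the median depended on how the populations were scaled to each other. The FPKM values of all rows summed to 754163 in Lgr5+ and 627932 in Lgr6+ progenitors, and setting these sums equal adds 0.26 to the log2 ratio of every gene. Under equal sums 10 of 61 translation factors were higher in Lgr6+ progenitors, against 37.8% of all kept rows. In Lgr5+ progenitors 8 of 61 were higher, against 17%. The median of the translation factors was 0.018, against 0.28 over all kept rows. Equal sums without the 200 highest rows gave 4 of 61 higher in Lgr6+ progenitors, against 32.2% of all kept rows. In Lgr5+ progenitors they gave 12 of 61, against 20.3%. With a 2-fold limit on the deposited scale the numbers were 2 of 61 (against 18.2%) and 5 of 61 (against 11.7%). With a lower limit of 0.32 on the log2 scale they were 10 of 61 (against 38.2%) and 27 of 61 (against 34%). The share of translation factors higher in Lgr5+ progenitors was thus below that of all kept rows under both equal-sum settings and the 2-fold limit. The median of the translation factors minus that of all kept rows was -0.27 as deposited and ranged from -0.28 (equal upper quartiles) to -0.08 (quantile normalization) under the 5 other scalings. All 19 genes higher in Lgr5+ progenitors kept a negative difference under every scaling, and 7 of them, *Eef1b2*, *Eef1d*, *Eef1g*, *Eif2s2*, *Eif3h*, *Eif3j2* and *Eif5b*, stayed at least 1.5-fold apart under all 5. The 3 genes higher in Lgr6+ progenitors also stayed at least 1.5-fold apart under all 5. Of the 8 role groups with a negative median as deposited, those of eEF1 (-0.70), eIF3 (-0.17) and eIF5A with eIF6 (-0.16) remained negative under equal sums, and the other five turned positive.

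**Figure D1:**
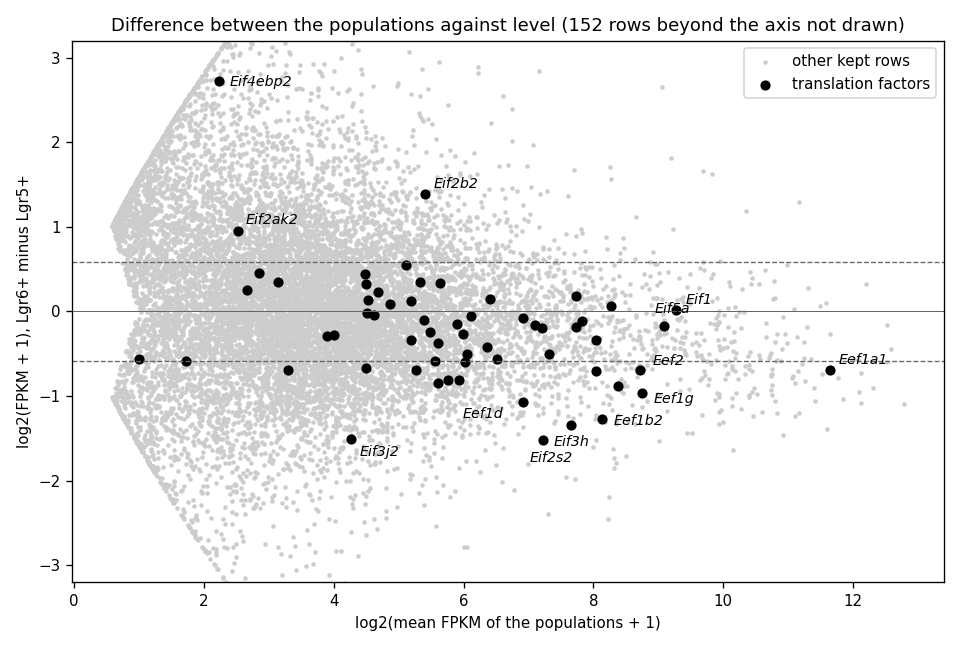
Difference between Lgr6+ and Lgr5+ progenitors on the log2(FPKM + 1) scale (vertical axis) against the log2 of the mean FPKM of the populations plus 1 (horizontal axis). Black points are the 61 kept translation factors, grey points are the other kept rows, dashed lines mark a 1.5-fold difference, and 152 rows beyond 3.2 in either direction are not drawn. On the right side of the plot most black points lie below 0, as does the bulk of the grey points there.

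The eEF1 elongation factors, which bring aminoacyl-tRNA to the ribosome, differed most. All 5 kept members had a negative difference, 4 of them were past 1.5-fold, and the group's median was -0.96. The 4 genes are 80% of the group, against 23.3% of all kept rows higher in Lgr5+ progenitors. *Eef1a1* (chromosome 9, 78478454 to 78481724, GRCm38), the GTPase that carries the aminoacyl-tRNA, had the highest FPKM of all translation factors in both populations. Its level was 3968 FPKM in Lgr5+ and 2449 FPKM in Lgr6+ progenitors, a difference of -0.70, and it ranked 15 and 19 among all rows.

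The subunits that recharge this GTPase with GTP differed more than *Eef1a1* itself. *Eef1b2* (chromosome 1, 63176831 to 63180486), one of the nucleotide exchange subunits, was at 397 FPKM in Lgr5+ and 164 FPKM in Lgr6+ progenitors, a difference of -1.27. *Eef1d*, the other exchange subunit, was at 162 and 76.7 FPKM (-1.07), and *Eef1g*, the structural subunit of the same complex, at 569 and 292 FPKM (-0.96). *Eef1e1*, which belongs to the aminoacyl-tRNA synthetase complex and not to the exchange complex, was at 16.7 and 13.6 FPKM (-0.28), under 1.5-fold.

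*Eef2*, the GTPase that moves the ribosome by a codon, was at 521 FPKM in Lgr5+ and 323 FPKM in Lgr6+ progenitors (-0.69). *Eef2k*, the kinase that inactivates eEF2, was at 4.80 and 5.89 FPKM (0.25), the 1 kept Eef row with a positive difference. Together the 8 Eef rows made up 0.748% of all FPKM in Lgr5+ and 0.529% in Lgr6+ progenitors. The 55 Eif rows made up 0.778% and 0.762%. Of their 54 kept members 14 were higher in Lgr5+ and 3 in Lgr6+ progenitors, with a median of -0.18. These are 25.9% and 5.56%, against 23.3% and 28.5% of all kept rows. The share of Eif rows higher in Lgr5+ progenitors thus lay near that of all rows.

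**Figure D2:**
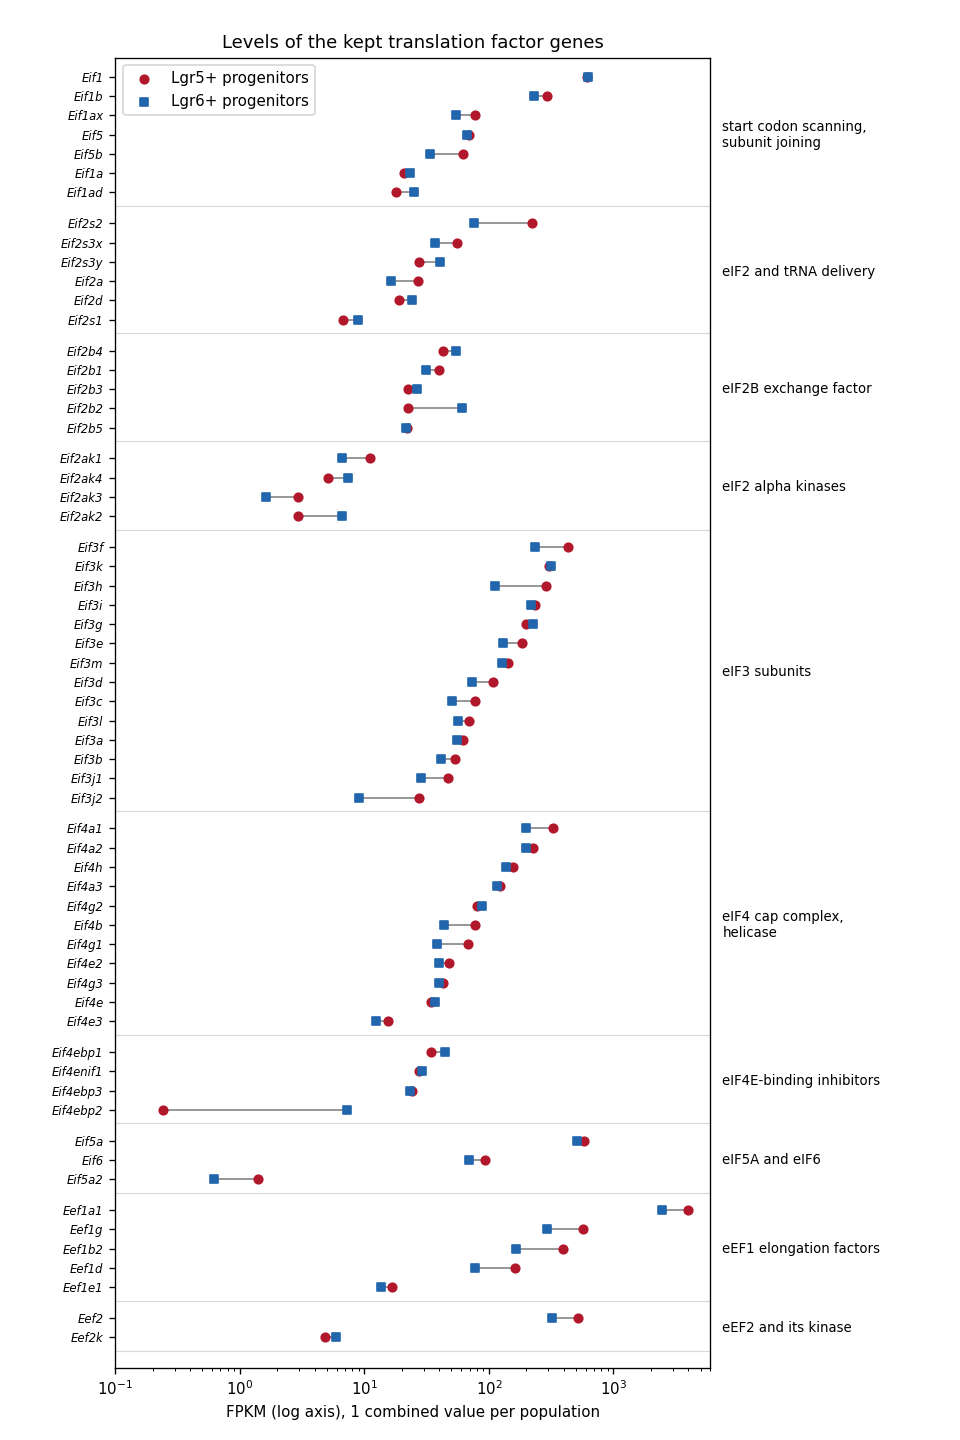
FPKM of each translation factor in Lgr5+ and Lgr6+ progenitors on a log axis, grouped by role, with 1 point per population and a line joining the pair. *Eef1a1* lies furthest to the right, the Lgr6+ point lies to the left of the Lgr5+ point for *Eef2* and every Eef1 gene drawn, and *Eif4ebp2* has the longest line.

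eIF3, the scaffold complex that holds the small subunit ready for the mRNA, was represented by 14 rows. The difference was negative for 12 of them, 5 were higher in Lgr5+ and 0 in Lgr6+ progenitors, and their median was -0.43. The shares are 35.7% and 0%, against 23.3% and 28.5% of all kept rows. *Eif3h* (chromosome 15, 51786563 to 51865461) was at 287 FPKM in Lgr5+ and 113 FPKM in Lgr6+ progenitors (-1.34). *Eif3f*, which encodes the partner of eIF3h within the complex, was at 431 and 233 FPKM (-0.88), and *Eif3c*, a core subunit, at 77.4 and 50.9 FPKM (-0.59).

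The subunits did not all differ alike. *Eif3g*, an RNA-binding subunit, was at 199 and 226 FPKM (0.18) and *Eif3k*, a subunit of the outer part of the complex, at 302 and 316 FPKM (0.07), so that both were level or slightly higher in Lgr6+ progenitors. *Eif3i*, which joins eIF3g on the mobile part of the complex, was at 235 and 216 FPKM (-0.12). Their order by level was nearly the same in both populations, with a Spearman rho of 0.93 across the 14 rows, against 0.96 across the 61 kept translation factors and 0.85 across all kept rows. These rows share the same libraries, and genes are not replicates.

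*Eif3j1* and *Eif3j2*, which encode the loosely bound subunit eIF3j, were at 46.6 and 28.5 FPKM (-0.69) and at 27.6 and 9.03 FPKM (-1.51). Both rows carry the same interval on chromosome 2 in the deposited table, whereas RefSeq places *Eif3j2* on another chromosome, so how fragments were shared between the 2 rows is uncertain.

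Among the genes of eIF2, which carries the initiator tRNA, the beta subunit stood furthest apart. *Eif2s2* (chromosome 2, 154871410 to 154892906) was at 221 FPKM in Lgr5+ and 76.2 FPKM in Lgr6+ progenitors, a difference of -1.52 and a 2.90-fold ratio of FPKM. This and *Eif3j2* were the lowest differences of all translation factors, and their order depended on the added 1, since the ratio of *Eif3j2* was 3.06-fold. *Eif2s1*, the alpha subunit that the stress kinases phosphorylate, was at 6.78 and 8.86 FPKM (0.34), so the subunits of the same heterotrimer had opposite signs. The gamma subunit has a copy on each sex chromosome. *Eif2s3x* was at 55.7 and 36.7 FPKM (-0.59), and its Y-linked copy *Eif2s3y* was at 27.3 and 40.3 FPKM (0.55). The share of male cells in each sort was not stated, and the other sex-linked genes did not move together. Among Y-linked genes, *Ddx3y* was at 6.73 and 11.4 FPKM, *Uty* at 0.85 and 4.45 FPKM and *Kdm5d* at 1.30 and 0.72 FPKM, while *Xist*, which is expressed from the inactive X chromosome, was at 26.2 and 72.0 FPKM. *Eif2a*, an alternative initiator tRNA carrier that is not a subunit of eIF2, was at 26.8 and 16.5 FPKM (-0.67).

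eIF2B, the complex that recharges eIF2 with GTP, was the group of subunits with a positive median, 0.23 over 5 genes. *Eif2b2* (chromosome 12, 85219513 to 85226628), the beta subunit, was at 22.5 FPKM in Lgr5+ and 60.4 FPKM in Lgr6+ progenitors (1.38), while the other four differed by less than 1.5-fold. *Eif2b1*, the alpha subunit, had the lowest difference of the group (-0.34), at 39.99 and 31.4 FPKM. The deposited interval of *Eif2b4* spans 21 protein-coding genes, so its value of 0.33 is uncertain. Intervals of genes past 1.5-fold that also overlap other protein-coding genes are those of *Eif2ak1* (3 genes in the interval) and of *Eif2ak2*, *Eif2a*, *Eif3j1*, *Eif3j2* and *Eif5b* (2 genes each), and their values carry the same limit. The *Eif5b* interval spans 131653 bases. Under 1.5-fold, the intervals of *Eif4enif1* (8 genes) and of *Eif1ad*, *Eif3m*, *Eif4a2* and *Eif5a* (2 genes each) also overlap other protein-coding genes.

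The kinases that phosphorylate eIF2 alpha and thereby stop its recharging differed in sign. *Eif2ak2* (PKR), which senses double-stranded RNA and is induced by interferon, was at 2.91 FPKM in Lgr5+ and 6.59 FPKM in Lgr6+ progenitors (0.95). *Eif2ak1*, the heme-regulated kinase, was at 11.2 and 6.56 FPKM (-0.69), the same direction as the erythroid markers, and *Eif2ak3* (PERK), the kinase of the endoplasmic reticulum, was at 2.95 and 1.63 FPKM (-0.59). *Eif2ak4* (GCN2), which senses amino acid shortage, was at 5.08 and 7.33 FPKM (0.45). The macrophage markers moved in the same direction as *Eif2ak2*, and whether either cell type contributed to these kinases was not tested.

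Among the genes of the cap complex, 3 of the 11 kept members were higher in Lgr5+ and 0 in Lgr6+ progenitors, with a median of -0.20. The 27.3% higher in Lgr5+ progenitors lay near the 23.3% of all kept rows. The 3 genes were *Eif4g1*, the scaffold that links the cap to the small subunit, at 68.4 and 38.5 FPKM (-0.81), *Eif4b*, which stimulates the helicase eIF4A, at 76.7 and 43.3 FPKM (-0.81), and the helicase gene *Eif4a1* at 327 and 199.8 FPKM (-0.71). The cap-binding protein gene *Eif4e* was at 34.2 and 37.2 FPKM (0.12). *Eif4g2*, which encodes a relative of eIF4G without the eIF4E binding site, had the highest difference of the group (0.14), at 79.8 and 88.3 FPKM.

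*Eif4ebp2* (chromosome 10, 61432497 to 61452669), an inhibitor that binds eIF4E until mTOR phosphorylates it, had the largest difference of all translation factors. It was at 0.243 FPKM in Lgr5+ and 7.21 FPKM in Lgr6+ progenitors, a difference of 2.72. The low value rests on very little sequence. FPKM values of single-transcript genes were multiplied by transcript length in kilobases after taking off 200 bases. In each population the low value at which most of these piled up is called a step here. The step was 0.128 in Lgr5+ progenitors, with 85 values at it against 7 beside it. In Lgr6+ progenitors it was 0.0402, with 29 values against 6.5. Whether values also piled up at multiples of a step was not examined. By those steps the Lgr5+ value of *Eif4ebp2* corresponds to between 2.32 and 3.01 steps and its Lgr6+ value to between 219 and 285 steps. What 1 step is in fragments is not known, because the values are combined, and it may differ between the populations. A 0 in Lgr5+ progenitors, as for *Eef1a2*, *C1qb* and *Tyrobp*, therefore does not establish absence. Whether it says less than a 0 in Lgr6+ progenitors would cannot be told. The other three inhibitors differed by less than 1.5-fold, with *Eif4ebp1* at 34.3 and 44.1 FPKM (0.35) and *Eif4ebp3* at 23.9 and 23.2 FPKM (-0.04).

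The factors of scanning, start codon choice and subunit joining were close between the populations, with a median of -0.06 over 7 genes. *Eif1*, which keeps the scanning ribosome open until the start codon is found, was at 614 and 619 FPKM (0.01), the highest level of the Eif rows in both populations. Its relative *Eif1b* was at 293 and 231 FPKM (-0.34). *Eif5b*, the GTPase that joins the large subunit, was at 61.5 and 33.9 FPKM (-0.84), the sole member of the group past 1.5-fold. *Eif1ad*, a relative of eIF1A, had the highest difference of the group (0.45), at 17.96 and 24.8 FPKM. *Eif5a*, which helps the ribosome through difficult peptide bonds, was at 579 and 512 FPKM (-0.18), and *Eif6*, which keeps free large subunits from joining, at 93.3 and 69.4 FPKM (-0.42).

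**Figure D3:**
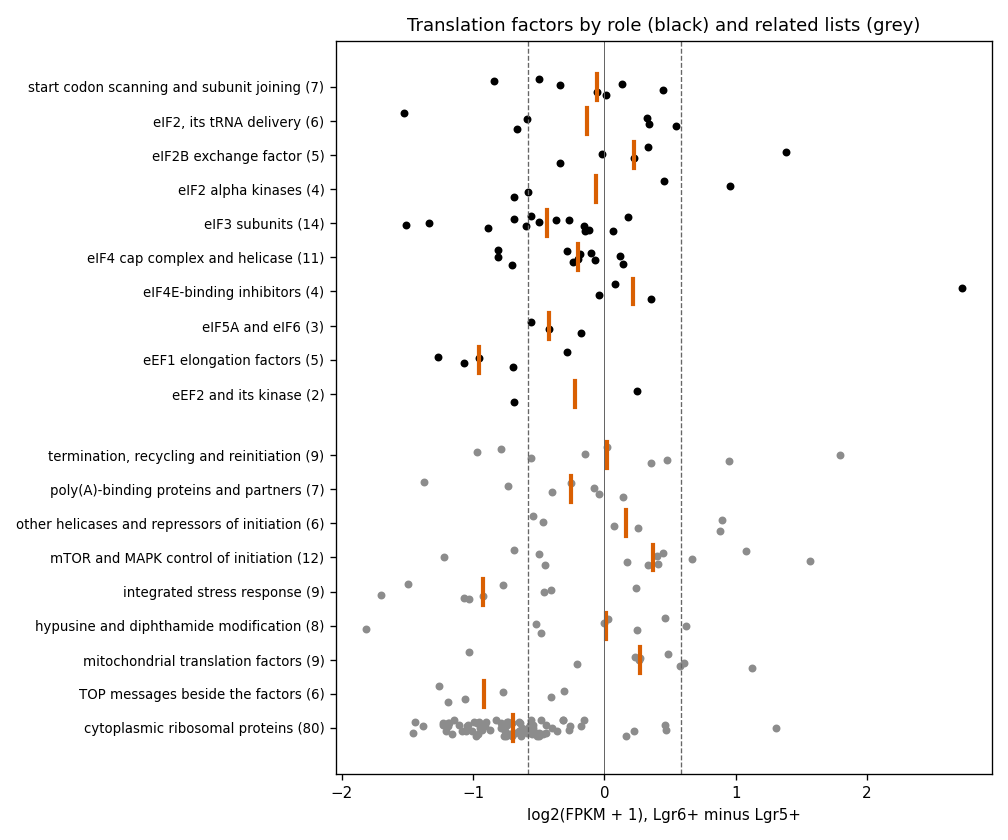
Difference between Lgr6+ and Lgr5+ progenitors on the log2(FPKM + 1) scale for each kept gene (points) and its group median (bars), for the role groups of the translation factors and for related gene lists. The eEF1 group has the lowest median of the role groups at -0.96, while eIF2B and the eIF4E-binding inhibitors have positive medians of 0.23 and 0.22.

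Because FPKM is per length, the levels of related genes can be set against each other within a population. *Eif4a2* was at 0.691 times the FPKM of *Eif4a1* in Lgr5+ and at 0.993 times in Lgr6+ progenitors. The deposited interval of *Eif4a2* ends at 23127730 (23114132 in RefSeq) and holds 2 protein-coding genes, so this ratio is uncertain. In the same order of populations, *Eif2s3y* was at 0.490 and 1.10 times *Eif2s3x*, *Eif4g2* at 1.17 and 2.29 times *Eif4g1*, and *Eif4g3*, another eIF4G, at 0.622 and 1.027 times *Eif4g1*. *Eif1ax* was at 3.68 and 2.35 times *Eif1a*, *Eif1b* at 0.477 and 0.373 times *Eif1*, and *Eif4e2*, a cap-binding relative that can repress translation, at 1.39 and 1.08 times *Eif4e*. *Eif5a2* and *Eif4ebp2* were too low for a firm ratio. The log2 ratio of *Eif5a2* to *Eif5a* was -7.92 in Lgr5+ and -8.30 in Lgr6+ progenitors with 1 added to each FPKM, and -8.70 and -9.68 without it. That of *Eif4ebp2* to *Eif4ebp1* was -4.83 and -2.46 with 1 added, and -7.14 and -2.61 without it. A ratio of FPKM within a population does not depend on scaling by a single factor, but quantile normalization, which works by rank, changes it. The coding sequences of *Eif2s3y* and *Eif2s3x* were 86.3% identical over aligned bases, with a longest identical run of 34 bases, and those of *Eif1ax* and *Eif1a* 85.5%, with a longest run of 28 bases.

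RefSeq entries for 250 bases before to 50 after the start (GRCm38.p6) matched 49 of the 63 genes, with 64 starts. A run of at least 7 pyrimidines opening with C, within 5 bases of the annotated start, is the letter pattern of a 5′TOP mRNA. It was present at 12.5% of the 64 starts (8 genes), at 6.48% of all 32851 starts, at 6.4% of 21263 protein-coding starts and at 30.8% of 78 ribosomal protein starts. The following windows show it in capitals in members with negative and with positive differences, each from 40 bases before to 20 after the start and read 5′ to 3′ on the gene's strand.
Eef1a1, chr9:78481705-78481764, minus strand: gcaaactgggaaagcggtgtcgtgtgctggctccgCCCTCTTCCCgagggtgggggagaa
Eif3f, chr7:108934375-108934434, plus strand: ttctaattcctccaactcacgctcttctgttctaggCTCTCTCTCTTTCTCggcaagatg
Eif2s3x, chrX:94212632-94212691, minus strand: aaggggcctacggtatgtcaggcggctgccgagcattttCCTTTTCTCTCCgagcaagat
Eif2s3y, chrY:1010555-1010614, plus strand: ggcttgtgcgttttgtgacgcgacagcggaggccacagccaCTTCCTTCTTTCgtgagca
Eif2b2, chr12:85219441-85219500, plus strand: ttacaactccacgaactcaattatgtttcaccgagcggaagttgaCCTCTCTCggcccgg

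*Eef1a1*, *Eif3f* and *Eif2s3x* had negative and *Eif2s3y* and *Eif2b2* positive differences, so the run was found in both directions. The 8 kept genes with it had a median difference of -0.15 and the 40 kept genes with an entry but no run had -0.22. The run was found at 30.8% of the starts of ribosomal protein genes, whose mRNAs are 5′TOP mRNAs. It can therefore miss such mRNAs, and these medians do not compare 5′TOP mRNAs with others. The starts are annotated and not measured here, so whether a run in capitals lies at the 5′ end of the mRNA is not known. In *Eef1a1* the run begins 5 bases before the annotated start.

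The letters CCGGAAG, which the ETS family of transcription factors binds, stood on either strand at 31.25% of the 64 starts. The shares were 8.86% of all starts, 11.6% of the 21263 starts of protein-coding genes and 32.1% of the ribosomal protein starts. They are shown in capitals near the start of *Eef1b2*, which was lower in Lgr6+ progenitors, and of *Eif4e2*, which differed by -0.24.
Eef1b2, chr1:63176791-63176850, plus strand: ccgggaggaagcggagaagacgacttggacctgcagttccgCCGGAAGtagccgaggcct
Eif4e2, chr1:87213871-87213930, plus strand: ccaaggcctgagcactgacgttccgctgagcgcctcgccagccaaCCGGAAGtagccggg

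The kept genes with these letters had a median difference of -0.24 (17 genes) and those without them -0.20 (31 genes). Among the other letters with a match in at least 6 genes, the medians with and without one lay furthest apart for TGACG, at -0.03 (24 genes) and -0.43 (24 genes), and for AAGATGGC, at -0.44 (6 genes) and -0.19 (42 genes). The E-box CACGTG stood at 21.9% of the 64 starts against 7.15% of all starts, the letters AAGATGGC of the factor YY1 at 9.38% against 2.75%, and the GC box GGGCGG at 70.3% against 35.7%. TATAAA was rarer than over all starts, at 7.81% against 13.6%, and so was CCAAT, at 25% against 37.4%. Over the protein-coding starts the shares were 7.8% for the E-box, 3.05% for AAGATGGC and 46.2% for the GC box. They were 12.6% for TATAAA, 38.2% for CCAAT and 23.6% for TGACG. TGACGTCA stood at 1.56% against 1.79% and its shorter form TGACG at 45.3% against 20.8%. TTGCATCA and a site of the factor ZNF143 were at 0% against 0.895% and 0.411%, a site of NRF1 at 1.56% against 0.971% and TTTCTC at 26.6% against 25.5%. CCGGAAGT (17.2% against 3.89%) and ACTTCCG (23.4% against 6.42%) overlap the ETS letters. These letters were chosen after the differences were known, and a match is a run of letters and not a measured site.

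The genes that work beside the factors were taken from lists of genes that the symbol rule does not match. Of 80 kept cytoplasmic ribosomal protein rows, 48 were higher in Lgr5+ and 1 in Lgr6+ progenitors (*Rpl26*, 23.6 and 59.9 FPKM). Of the 80, 75 had a negative difference and the median was -0.69. They made up 20.6% of all FPKM in Lgr5+ and 14.7% in Lgr6+ progenitors. The 60% higher in Lgr5+ progenitors compares with 23.3% of all kept rows and 29.1% of those with a mean FPKM of at least 100. For Lgr6+ progenitors these comparison shares were 28.5% and 7.84%. Under equal sums 27 ribosomal protein rows were higher in Lgr5+ progenitors, against 17% of all kept rows, with a median of -0.43. Quantile normalization gave 16 of 80, against 25.7% of all kept rows, with a median of -0.28. Other genes known to have 5′TOP mRNAs, 6 in the table, had a median of -0.92 and 4 were higher in Lgr5+ progenitors. *Tpt1* was at 3704 and 1773 FPKM (-1.06), *Gnb2l1*, the ribosomal scaffold RACK1, at 1365 and 598 FPKM (-1.19), *Nap1l1*, a histone chaperone, at 160 and 66.2 FPKM (-1.26) and *Npm1*, a nucleolar chaperone of ribosome assembly, at 513 and 299 FPKM (-0.78).

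Targets of the integrated stress response, which eIF2 alpha phosphorylation sets off, had a negative median as deposited and under each of the 5 other scalings. Of 9 kept genes, 6 were higher in Lgr5+ and 0 in Lgr6+ progenitors, with a median of -0.93. The shares are 66.7% and 0%, against 23.3% and 28.5% of all kept rows. *Atf4*, the transcription factor of this response, was at 554 and 169 FPKM (-1.70). *Atf5*, a related factor, was at 15.7 and 4.92 FPKM (-1.50), *Asns*, asparagine synthetase, at 21.1 and 9.79 FPKM (-1.03) and *Ppp1r15a*, the phosphatase subunit that reverses the phosphorylation, at 66.9 and 38.7 FPKM (-0.77). The deposited interval of *Atf5* is wide, so its value is uncertain. *Atf4* is translated mainly when eIF2 is phosphorylated, and mRNA levels do not measure that step.

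The genes of mTOR and MAPK control had a positive median, 0.37 over 12 genes, with 3 higher in Lgr6+ and 2 in Lgr5+ progenitors. These counts are 25% and 16.7% of the list, near the 28.5% and 23.3% of all kept rows. *Rheb*, the small GTPase that activates mTORC1, was at 34.1 and 73.1 FPKM (1.08), *Mknk1*, a kinase of eIF4E, at 1.92 and 7.64 FPKM (1.56) and *Tsc1*, part of the brake on Rheb, at 3.64 and 6.38 FPKM (0.67). *Rps6kb1*, the S6 kinase downstream of mTOR, was at 17.3 and 6.84 FPKM (-1.22) and *Mknk2*, the other eIF4E kinase, at 21.8 and 13.2 FPKM (-0.69). The deposited interval of *Rps6kb1* is wide, so its value is uncertain. *Mtor* itself was at 3.68 and 4.27 FPKM (0.17).

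The remaining lists were mixed. In termination and recycling, 2 of 9 genes were higher in each population. These are 22.2% each, against 28.5% of all kept rows higher in Lgr6+ and 23.3% in Lgr5+ progenitors. The reinitiation partners *Denr* and *Mcts1* were at 79.0 and 39.8 FPKM (-0.97) and at 93.2 and 53.6 FPKM (-0.78). The *Mcts1* copy *Mcts2* was at 11.03 and 40.8 FPKM (1.80), and the ribosome rescue factor *Pelo* at 7.53 and 15.5 FPKM (0.95). Whether the deposited intervals of list genes hold other genes was not counted. Wide intervals, which leave the values uncertain, include those of *Mcts2* (chromosome 2, 152669461 to 152708668) and *Pelo* (chromosome 13, 114958081 to 115101964). They also include those of *Cyfip2* (chromosome 11, 46193849 to 46589232), *Rps6kb1* (chromosome 11, 86415844 to 86544807) and *Atf5* (chromosome 7, 44812256 to 44849079). Of the 7 poly(A)-binding genes, *Pabpc4* at 27.2 and 9.86 FPKM (-1.37) and *Larp4* at 11.1 and 6.29 FPKM (-0.73) were higher in Lgr5+ progenitors, and *Pabpc1* was at 208 and 157 FPKM (-0.40). *Cyfip1* at 5.38 and 10.7 FPKM (0.88) and *Cyfip2* at 12.5 and 24.2 FPKM (0.90), which bind eIF4E together with FMRP, were the members of the 6 helicases and repressors past 1.5-fold. *Dohh*, the hydroxylase that completes hypusine on eIF5A, was at 139.8 and 39.0 FPKM (-1.82). Among 9 mitochondrial translation factors, *Gfm1* at 3.58 and 8.98 FPKM (1.12) and *Mrrf* at 7.19 and 11.5 FPKM (0.61) were higher in Lgr6+ progenitors and *Mtif2* at 29.4 and 13.9 FPKM (-1.03) in Lgr5+ progenitors. The shares higher in Lgr6+ and in Lgr5+ progenitors were 0% and 28.6% for the poly(A)-binding genes. They were 33.3% and 0% for the helicases and repressors, 12.5% and 12.5% for the list with *Dohh* and 22.2% and 11.1% for the mitochondrial factors. Over all these lists without the ribosomal proteins, 10 of 66 kept genes were higher in Lgr6+ and 18 in Lgr5+ progenitors, with a median of -0.11. These are 15.2% and 27.3%, against 28.5% and 23.3% of all kept rows, so the share higher in Lgr5+ progenitors lay near that of all rows.

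**Figure D4:**
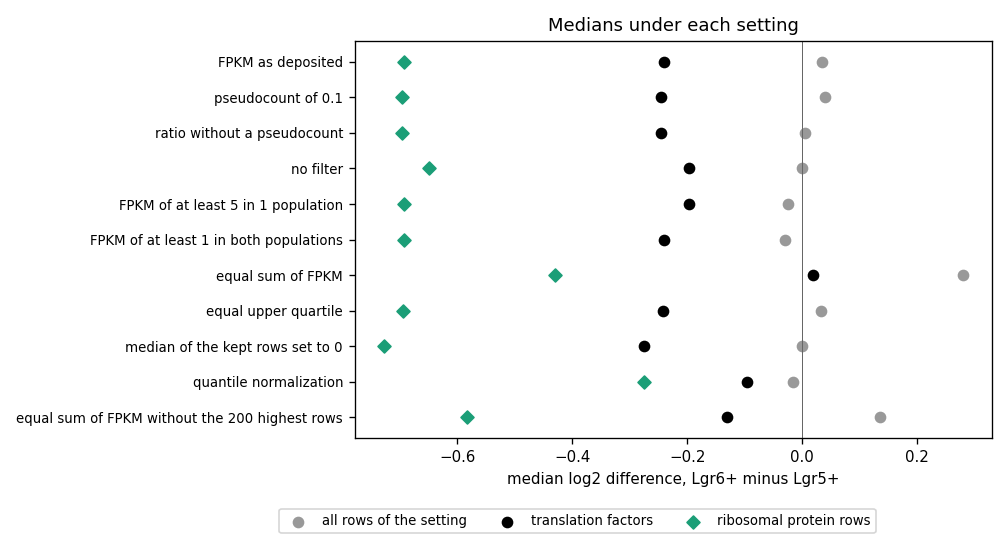
Median difference between Lgr6+ and Lgr5+ progenitors on the log2 scale under each processing choice, for the translation factors and for all kept rows. The translation factors lie below all kept rows under every choice drawn, and their median is above 0 under equal sums, at 0.018, where ribosomal protein rows (diamonds) stay below 0.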

How the data were processed

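By the methods, RNA of sorted Lgr5+ and Lgr6+ progenitors was amplified with a SMART-Seq v4 kit for paired-end sequencing. Trimmomatic was used for trimming and TopHat for alignment, and the authors computed FPKM with Cufflinks from RefGene annotation. Versions are not given in the sources used here. The methods name mm9 and the labels mm10, and 98.8% of 22500 symbols overlapped their RefSeq gene of GRCm38.p6, against 12.7% of 20736 for NCBIM37. Each FPKM that the authors deposited is 1 combined value per population, normalized for transcript length and mapped fragments. The 3 further columns hold the authors' own fold change, p-value and q-value, and these were not used.

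The table holds no counts, so the depth behind each value is unknown and no interval is given. The paper reports reads and mapped shares as ranges over its samples, not for each population. No counting or replicate error can be attached to a value. Differences were computed as log2(FPKM + 1) with Python 3.11.15, numpy 2.4.6 and pandas 2.3.3, for rows that reached an FPKM of 1 in either population. The calculation was run on the Lgr5+ values with exact 2-fold changes built in and no noise, which checks the code and not the results. Genes past 1.5-fold, the 10 highest, the ends of each role group, 11 pairs of related genes, and list genes past 1.5-fold with an FPKM of at least 5 were named, with *Atf4*, *Pabpc1*, *Tpt1* and *Mtor*. Ribosomal protein rows are given by count, and *Eif2s1*, *Eif2b4*, *Eif2ak4* and some other members under 1.5-fold, as well as *Rpl26* and the markers, were added for context. The genes, lists and markers were chosen with earlier results of these data known. The classes by mean FPKM and the 14 letter strings and the pyrimidine run searched in promoters were chosen after seeing the data. Alternatives were other pseudocounts, filters, scalings and fold limits.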

Additional observations from a re-analysis of the deposited data

How the results depend on the processing

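Over the 2 counts and the median of the translation factors, the count of role groups with a negative median and the 2 counts of pathway genes, 12 of 70 alternative values moved by more than the tolerance (1.5 times for a count, 0.2 for a log2 value) and the median of the translation factors changed sign under 1 of them. No value past the 1.5-fold limit changed sign. Setting equal sums of FPKM gave 10 translation factors higher in Lgr6+ progenitors in place of 3 and 8 higher in Lgr5+ progenitors in place of 19, a median of 0.018 in place of -0.24, 3 role groups with a negative median in place of 8, and 19 pathway genes higher in Lgr6+ progenitors in place of 10. Of all kept rows, 37.8% were higher in Lgr6+ and 17% in Lgr5+ progenitors under equal sums. Equal sums without the 200 highest rows left 12 of 61 translation factors higher in Lgr5+ progenitors, against 20.3% of all kept rows. A 2-fold limit gave 5 of 61 translation factors higher in Lgr5+ progenitors, against 11.7% of all kept rows. It gave 4 pathway genes higher in Lgr6+ and 11 in Lgr5+ progenitors in place of 10 and 18. A limit of 0.32 on the log2 scale gave 10 translation factors higher in Lgr6+ progenitors (38.2% of all kept rows passed it), with 19 pathway genes higher in Lgr6+ and 29 in Lgr5+ progenitors. Of 863 alternative values of single genes, groups and ratios, 129 moved and 734 did not. No paired analysis was possible because the table holds 1 combined value per population, and for the same reason leaving out each replicate and the replicate block were not run. With 1 value per population and no counts, neither sampling error nor differences between animals can be set against any value.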
